A study of Mus musculus with 6 samples.

Results

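Cholecystokinin and the enzymes that turn prohormones into active peptides were examined in NIH/3T3 cells, a mouse fibroblast line that grows without limit in culture. A list of 9 genes was drawn up around Cck, known to be far lower in 8KR cells. The members were thus chosen by a difference already seen for Cck and by the roles of the other genes. For each gene, the probe set was selected on its level, as the brightest by its 6-array mean among those that the platform annotation gives a single symbol. Such a probe set was found for 8 of the 9 genes, out of 19938 genes with one on the array. Each of the 8 had only 1, so the choice of the brightest probe set decided nothing. No symbol of the annotation names Pcsk2, and this gene was not analysed here. Cells of the first group stably expressed HA-tagged mouse RPB1, the biggest of the RNA polymerase II subunits, with the lysines at position 7 of its C-terminal repeats substituted by arginine (8KR), which prevents their acetylation. Cells of the second group stably expressed wild type HA-RPB1. The medium of both groups was DMEM that contained α-amanitin, which inhibits RNA polymerase II, at 2 µg/ml, and bovine calf serum at 10%. Each group held 3 biological replicates, and the sources used here do not say whether these came from 1 stably transfected population. If they did, the p-values measure only the spread within it.

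Values are log2 intensities from Affymetrix Mouse Gene 1.0 ST arrays, on which a transcript is read by several probes grouped in a probe set. A group mean of 3.0 is the cutoff below which the methods treat expression as background. The array medians ran from 4.53 to 4.54 in 8KR cells and from 4.49 to 4.52 in wild type cells. Arrays of the same group correlated at 0.982 to 0.984, and arrays of different groups at 0.975 to 0.978. Polr2a, which encodes RPB1, had a mean of 12.13 in 8KR cells and 12.10 in wild type cells. Its probe set may read both the expressed construct and the endogenous gene. All 9 fibroblast marker genes were measured, with summed linear intensities of 16259 to 16530 on the 8KR arrays and 17040 to 17619 on the wild type arrays. Among them Col3a1, a fibrillar collagen gene, fell by 0.52 on the log2 scale (adjusted p = 0.0364 from limma), and its adjusted p lay between 0.0731 and 0.112 when any 1 array was left out. The other 8 did not reach an adjusted p under 0.05, which 5.39% of all 17145 genes tested did. The median log2 difference of the 9 was -0.19. For 4 of the 9 the unadjusted p from limma was under 0.05, beside 21.8% of all genes tested. The part of these markers in the differences below was not tested.

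Peptide hormones are made as long precursors that enter the secretory pathway. Proprotein convertases cut the precursor at pairs of basic residues, carboxypeptidase E removes the basic residues left at the new ends, and peptidylglycine alpha-amidating monooxygenase turns a terminal glycine into an amide. Cholecystokinin is cut from its precursor, is sulfated on a tyrosine and is amidated, and it acts in gut and brain through 2 G protein-coupled receptors. Proenkephalin, the product of Penk, yields the opioid peptides met- and leu-enkephalin through the same cutting by convertases and trimming by carboxypeptidase E. Cck and Penk are best known from neurons and endocrine cells rather than from fibroblasts.

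The Cck promoter is shown because Cck was the member with a large difference between the groups. The sequence is that of RefSeq, build GRCm38.p6, minus strand, chr9:121495670-121495944, with 250 bases before the annotated start and 25 from it. Capitals mark, from left to right, the E-box CACGTG, the element TGCGTCA, which resembles both the cAMP and the phorbol ester response elements, and the TATA-like run TATTTAA.
Cck: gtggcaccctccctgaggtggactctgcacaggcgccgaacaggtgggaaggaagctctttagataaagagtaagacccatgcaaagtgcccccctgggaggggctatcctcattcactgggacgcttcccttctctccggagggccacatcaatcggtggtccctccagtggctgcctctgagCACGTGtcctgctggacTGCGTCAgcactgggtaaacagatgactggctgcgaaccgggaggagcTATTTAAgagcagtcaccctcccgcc
The first bases of these 3 matches lie 66, 49 and 1 bases before the annotated start, and no 2 of them overlap. On both strands of 32851 RefSeq windows of 300 bases, CACGTG was present in 7.15%, TGCGTCA in 2.12% and TATTTAA in 4.51%. Windows were given for 6 of the 9 genes. Among the others, the Cckbr window held 1 E-box, and the Pcsk1 window held 1 full cAMP response element TGACGTCA, a motif present in 1.79% of all windows. The motif GGGCGG, a GC box present in 35.7% of windows, was found for Pam, Pcsk1, Pcsk2 and Pcsk5 and not in the Cck window. These matches are letters only, and no binding was measured.

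Cck was read by probe set 10597817. Its log2 intensity was 4.47, 4.79 and 4.54 on the 3 arrays of 8KR cells, against 7.93, 8.12 and 7.99 on the 3 arrays of wild type cells. All 8KR values lay more than 3 log2 units below all wild type values, and no array of either group approached the other group. The means were 4.60 ± 0.17 in 8KR cells and 8.01 ± 0.10 in wild type cells (SD, n = 3 each), a 10.7-fold lower level in 8KR cells (log2 difference -3.42). The 8KR mean lay above the cutoff of 3.0 and near the array medians, and the background of this probe set itself was not measured. The list was drawn up with this fall already known, so it is given as a description and without a test. In these bulk samples, fewer cells that make Cck and less Cck RNA per cell cannot be told apart.

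**Figure D1:**
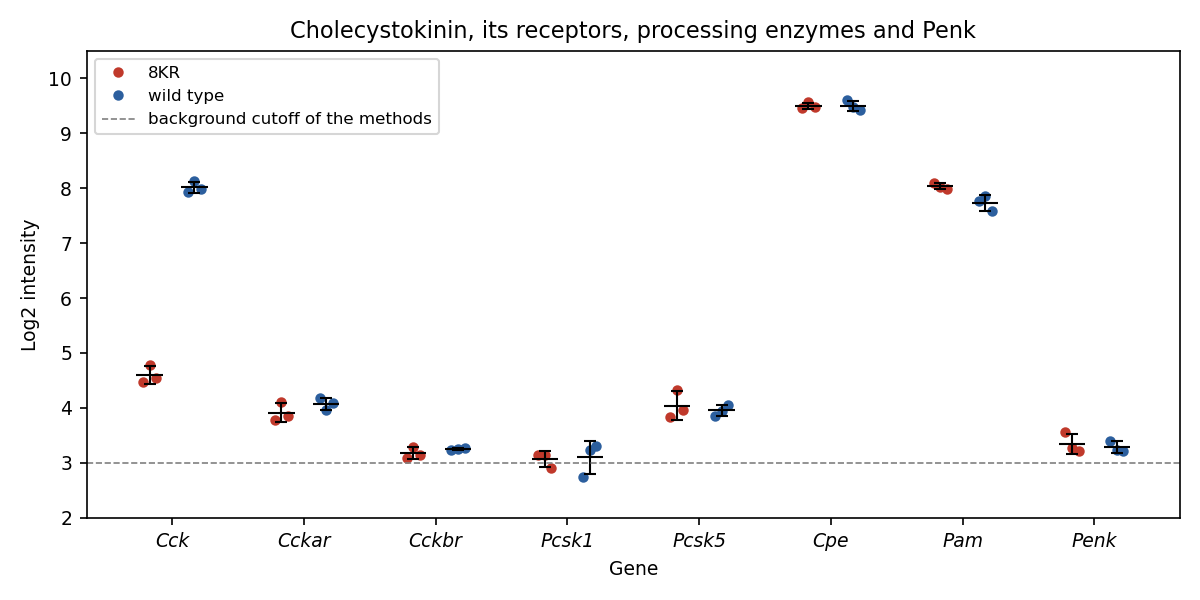
Log2 intensity (vertical axis) of the 8 measured genes (horizontal axis) in 8KR cells (red, left) and wild type cells (blue, right), where points are arrays, short lines are means and error bars are SDs. Cck lies near 4.60 in 8KR cells and near 8.01 in wild type cells, whereas the 2 groups lie close together for the other genes.

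Both receptor genes of cholecystokinin were dim in both groups. Cckar, the receptor that prefers the sulfated peptide and is prominent in pancreas and gallbladder, had log2 intensities of 3.78, 4.10 and 3.86 in 8KR cells, against 4.17, 3.96 and 4.09 in wild type cells. The groups overlapped, and the log2 difference of -0.16 had a 95% interval of -0.44 to 0.12 (adjusted p = 0.502 from limma). Cckbr, the receptor shared with gastrin and prominent in brain and stomach, gave 3.08, 3.29 and 3.15 in 8KR cells, against 3.24, 3.25 and 3.27 in wild type cells. Here too the arrays overlapped, at a level just above the cutoff of 3.0 (log2 difference -0.08, 95% interval -0.28 to 0.12, adjusted p = 0.663 from limma).

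The convertases among the members were also dim. Pcsk1 encodes PC1/3, the main convertase of the regulated secretory pathway, and gave 3.15, 3.14 and 2.90 in 8KR cells, against 2.75, 3.24 and 3.31 in wild type cells. In each group 1 of the 3 arrays lay below 3.0, and the log2 difference was -0.03 (95% interval -0.45 to 0.38, adjusted p = 0.939 from limma). Pcsk5, which encodes PC5/6, a convertase of many tissues that cuts growth factor and matrix precursors, gave 3.83, 4.33 and 3.96 in 8KR cells, against 3.86, 3.95 and 4.06 in wild type cells. The highest and the lowest of its 6 values were both from 8KR cells, and the log2 difference was 0.08 (95% interval -0.27 to 0.44, adjusted p = 0.807 from limma). The 2 intervals limit the difference in intensity and, at levels this close to the cutoff, not a change in the RNA.

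The enzymes that act after the convertases were bright in both groups. Cpe, which encodes carboxypeptidase E, gave 9.45, 9.56 and 9.47 in 8KR cells, against 9.60, 9.47 and 9.42 in wild type cells. Its means were 9.50 ± 0.06 in 8KR cells and 9.50 ± 0.09 in wild type cells (SD, n = 3 each), with a log2 difference of -0.0011 and a 95% interval of -0.21 to 0.20 (adjusted p = 0.996 from limma). The interval limits the difference in Cpe intensity in either direction. Pam, which encodes the amidating enzyme, gave 8.10, 8.01 and 7.99 in 8KR cells, against 7.77, 7.86 and 7.58 in wild type cells. All 3 8KR arrays lay above all 3 wild type arrays, and the means were 8.04 ± 0.06 in 8KR cells and 7.73 ± 0.14 in wild type cells (SD, n = 3 each). The log2 difference of 0.30 (95% interval 0.06 to 0.54) had an unadjusted p of 0.0212 and failed to pass after adjustment (adjusted p = 0.164 from limma).

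Penk was close to the background cutoff in both groups. Its log2 intensities were 3.56, 3.28 and 3.22 in 8KR cells, against 3.41, 3.24 and 3.22 in wild type cells, and the groups overlapped. The log2 difference was 0.06 (95% interval -0.22 to 0.35, adjusted p = 0.818 from limma).

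**Figure D2:**
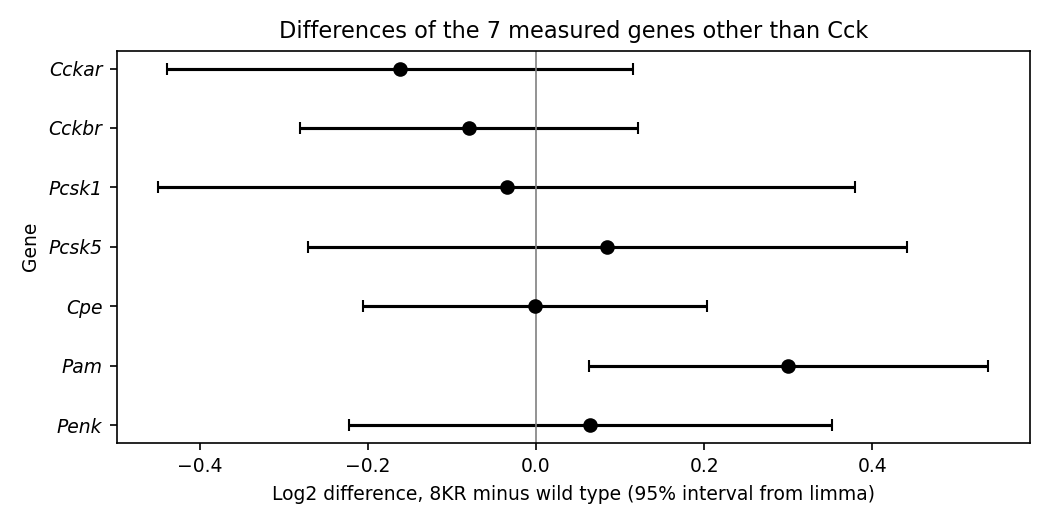
Log2 difference between 8KR and wild type cells (horizontal axis) of the 7 measured genes other than Cck (vertical axis), with the 95% interval from limma as a bar and a vertical line at 0. The interval of Pam, 0.06 to 0.54, lies above 0 before adjustment, and the intervals of the other 6 genes cross 0.

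Of the 8 measured genes, Cck passed at an adjusted p under 0.05 and 7 did not, beside 5.39% of all 17145 genes tested that passed in either direction, 3.06% that passed lower and 2.33% that passed higher in 8KR cells. Cck entered the list through this contrast, so nothing is read from that count or from its part in the counts that follow. The groups did not overlap for 2 of the 8, Cck and Pam, beside 29.7% of all tested genes, and the same 2 had an unadjusted p under 0.05, beside 21.8%. The median log2 difference was -0.02 over the 8 genes and 0.01 over all genes tested. All 8 passed the filter on dim probe sets, and 5 of them (Cckar, Cckbr, Pcsk1, Pcsk5 and Penk) had both group means below 5.0.

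Other genes of the processing machinery were read against the same shares of all genes tested, 5.39% with an adjusted p under 0.05 and 21.8% with an unadjusted p under 0.05. Of 5 other proprotein convertase genes tested, Pcsk7 fell and 4 did not pass, and 2 of the 5 had an unadjusted p under 0.05 from limma. Pcsk7, a convertase anchored in the membrane, averaged 5.48 ± 0.08 in 8KR cells and 6.01 ± 0.15 in wild type cells (SD, n = 3 each), with a log2 difference of -0.52 (adjusted p = 0.0481 from limma). When any 1 of the 6 arrays was left out, Pcsk7 did not pass, with adjusted p between 0.0686 and 0.142. Furin, the widely expressed convertase of the constitutive secretory pathway, is named here for its role and not for its values. It averaged 7.03 in 8KR cells and 7.29 in wild type cells (log2 difference -0.25). Its unadjusted p from limma was 0.0256, and it did not pass after adjustment (adjusted p = 0.179 from limma). Scg5, which encodes the chaperone of PC2, and Pcsk1n, which encodes an inhibitor of PC1/3, had log2 differences of -0.22 and -0.23, and neither passed from limma (0 of the 2 had an unadjusted p under 0.05).

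Of 11 other carboxypeptidase and late processing genes tested, 0 passed the limma test and 1 had an unadjusted p under 0.05. They include Tpst1 and Tpst2, the tyrosine sulfotransferase genes, with log2 differences of -0.21 and 0.05 and means above 7.9 in both groups. Of 13 genes of secretory granules and their release, which include the granin genes Chga, Chgb and Scg2, 0 passed and 3 had an unadjusted p under 0.05, and the median log2 difference was -0.06. Only 4 of these 13 had a group mean above 5.0. Among 8 neuroendocrine and neuronal markers with a probe set, 3 (Neurod1, Stmn2 and Elavl4) lay below 3.0 in both groups, and 0 of the 5 tested passed or had an unadjusted p under 0.05. Their summed linear intensity was 106 to 127 on the 8KR arrays and 101 to 108 on the wild type arrays, and only Insm1 had a group mean above 5.0. None of the 6 epithelial and 2 leukocyte markers tested passed the limma test, and 1 and 0 of them had an unadjusted p under 0.05.

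**Figure D3:**
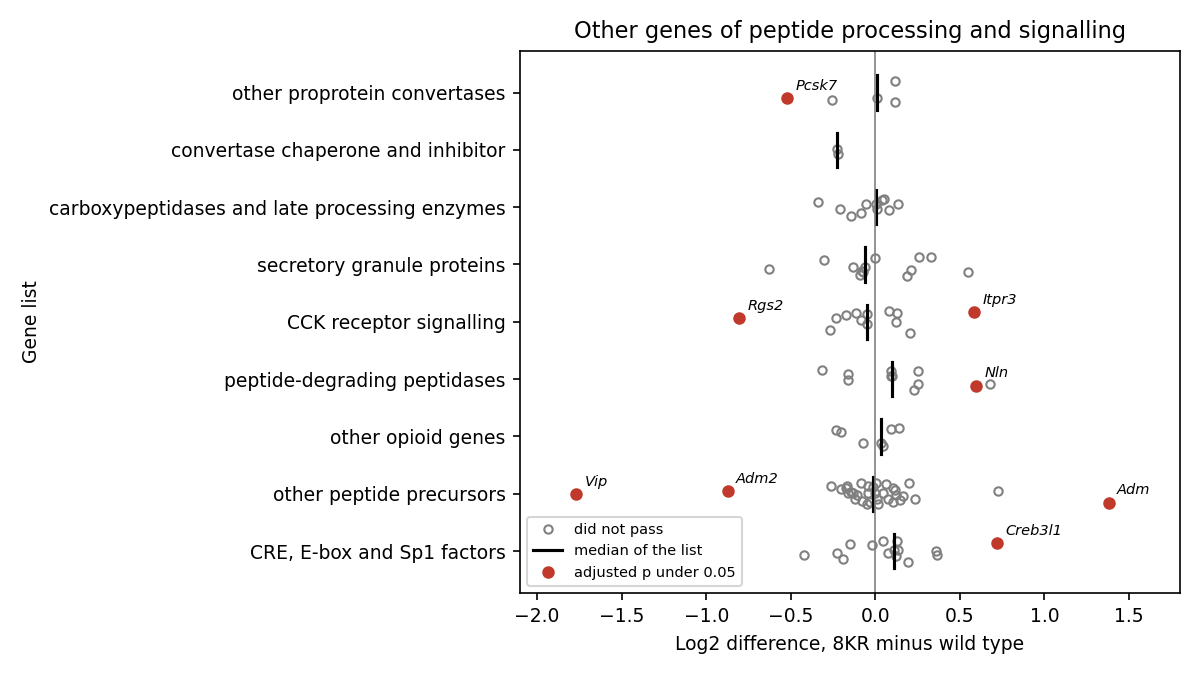
Log2 difference between 8KR and wild type cells (horizontal axis) for the tested genes of 9 lists (vertical axis), with 1 point per gene, filled red where the adjusted p was under 0.05, and the median of each list as a black bar. The medians lie between -0.22 and 0.11, and Vip at -1.77 and Adm at 1.38 lie farthest out.

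Among genes of receptor signaling and of peptide breakdown, Itpr3 and Nln rose and Rgs2 fell in 8KR cells, beside the 5.39% of all tested genes that passed. Of 13 genes that carry or limit signals from the cholecystokinin receptors, Itpr3 rose, Rgs2 fell and 11 did not pass. Itpr3, a calcium channel opened by inositol trisphosphate, averaged 7.40 ± 0.03 in 8KR cells and 6.81 ± 0.10 in wild type cells (SD, n = 3 each), a log2 difference of 0.58 (adjusted p = 0.0209 from limma). Rgs2, which shortens signaling through Gq, averaged 5.71 ± 0.23 in 8KR cells and 6.51 ± 0.11 in wild type cells, a log2 difference of -0.81 (SD, n = 3 each, adjusted p = 0.0328 from limma). Of 11 peptidases that break down small peptides, Nln, the neurolysin gene, rose by 0.60 on the log2 scale (adjusted p = 0.0228 from limma) and 10 did not pass. Unadjusted p from limma was under 0.05 for 4 of the 13 signaling genes and 5 of the 11 peptidase genes. Over all genes tested this share was 21.8%. With 1 of the 6 arrays left out in turn, Itpr3 passed only without wild type replicate 1 (adjusted p = 0.0463) and otherwise reached an adjusted p of up to 0.0814 from limma. Rgs2 and Nln passed in none of these 6 fits, with adjusted p of 0.0579 to 0.109 for Rgs2 and 0.0505 to 0.0847 for Nln.

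Other peptide precursor genes included a fall and a rise of more than 2-fold. Of 35 tested, Vip and Adm2 fell, Adm rose and 32 did not pass, beside the 5.39% of all tested genes that passed. An unadjusted p under 0.05 from limma was seen for 5 of the 35, beside 21.8% of all tested genes. The median log2 difference of the 35 was -0.01. Vip encodes vasoactive intestinal peptide, an amidated peptide of nerves, and gave 3.57, 4.24 and 3.86 in 8KR cells, against 5.21, 5.69 and 6.08 in wild type cells. The groups did not overlap, although the arrays spread more than those of Cck, and the level was 3.40-fold lower in 8KR cells (log2 difference -1.77 with a standard error of 0.27, adjusted p = 0.0242 from limma). Adm encodes adrenomedullin, an amidated peptide that widens blood vessels, and gave 8.25, 8.29 and 8.20 in 8KR cells, against 6.97, 6.95 and 6.68 in wild type cells. Every 8KR array was above every wild type array, at a 2.60-fold higher level (log2 difference 1.38 with a standard error of 0.10, adjusted p = 0.0032 from limma). Adm2, the gene of the related peptide intermedin, gave 4.49, 4.63 and 4.44 in 8KR cells, against 5.53, 5.22 and 5.42 in wild type cells (log2 difference -0.87, adjusted p = 0.0145 from limma). Gast, the gene of gastrin, which shares its amidated end with cholecystokinin, is named for that kinship and averaged 4.88 in 8KR cells and 4.75 in wild type cells (log2 difference 0.12, adjusted p = 0.635 from limma). Adm passed with any 1 array left out (adjusted p 0.0141 to 0.0240). Vip passed only without wild type replicate 1 (adjusted p = 0.0423) and reached an adjusted p of up to 0.0855 in the other 5 fits, and Adm2 passed only without 8KR replicate 2 or wild type replicate 2 (adjusted p = 0.0456 and 0.0333) and reached an adjusted p of up to 0.0629.

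**Figure D4:**
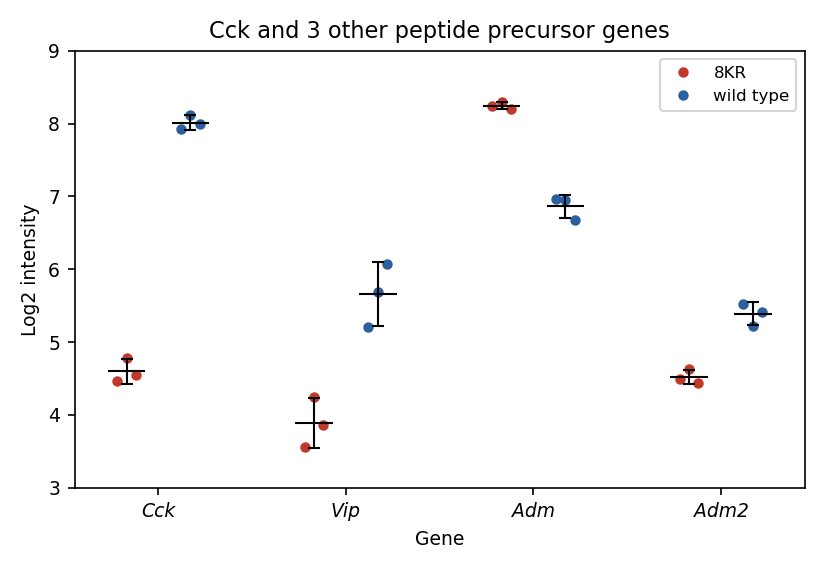
Log2 intensity (vertical axis) of Cck and the 3 other peptide precursor genes with an adjusted p under 0.05 (horizontal axis) in 8KR cells (red, left) and wild type cells (blue, right), where points are arrays, short lines are means and error bars are SDs. Cck, Vip and Adm2 lie lower on every 8KR array, and Adm lies higher on every 8KR array.

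Among 7 tested opioid genes other than Penk, 0 passed the limma test (5.39% of all genes) and 0 had an unadjusted p under 0.05 (21.8%). Ogfr, the opioid growth factor receptor gene, was the only one of them with a group mean above 5.0, and the precursor genes Pdyn, Pomc and Pnoc averaged 3.76, 4.05 and 4.81 in 8KR cells and 3.97, 4.29 and 4.88 in wild type cells.

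Factors that act at cAMP response elements, E-boxes and GC boxes were measured beside the Cck motifs. Of 15 genes tested, Creb3l1 rose and 14 did not pass, beside the 5.39% of all tested genes that passed. An unadjusted p under 0.05 from limma was found for 4 of the 15, beside 21.8% of all tested genes. The median log2 difference of the 15 was 0.11. Creb3l1, a membrane-bound relative of CREB that is cut to release its active part, averaged 7.80 ± 0.11 in 8KR cells and 7.08 ± 0.06 in wild type cells (SD, n = 3 each), a log2 difference of 0.72 (adjusted p = 0.0132 from limma). It passed only without 8KR replicate 2 (adjusted p = 0.0379) or wild type replicate 1 (adjusted p = 0.0498) when 1 array was left out, with adjusted p of up to 0.0597 in the other 4 fits. Creb1, which encodes CREB itself, and Usf1 and Usf2, which encode E-box factors, are named for their roles. Their log2 differences were 0.36, 0.11 and 0.36, and none of them passed (adjusted p = 0.0963, 0.817 and 0.0750 from limma).

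Genes that lie next to Cck on the chromosome did not share its large fall. Neighbours were taken by position alone from RefSeq, as the 6 nearest tested genes on each side. Of these 12, 1 passed and 11 did not, beside the 5.39% of all tested genes, and their log2 differences ran from -0.96 to 0.0045 with a median of -0.19. The median over all genes tested was 0.01. An unadjusted p under 0.05 from limma was found for 3 of the 12, beside 21.8% of all tested genes. The 1 that passed was Ss18l2, which averaged 8.16 in 8KR cells and 9.12 in wild type cells (log2 difference -0.96, adjusted p = 0.0049 from limma), and it passed with any 1 array left out (adjusted p 0.0254 to 0.0324). The genes directly beside Cck, Trak1 and Lyzl4, had log2 differences of -0.25 and -0.08. Vipr1, a receptor gene for vasoactive intestinal peptide, lies 2 tested genes away and had a log2 difference of -0.23 (adjusted p = 0.409 from limma).

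**Figure D5:**
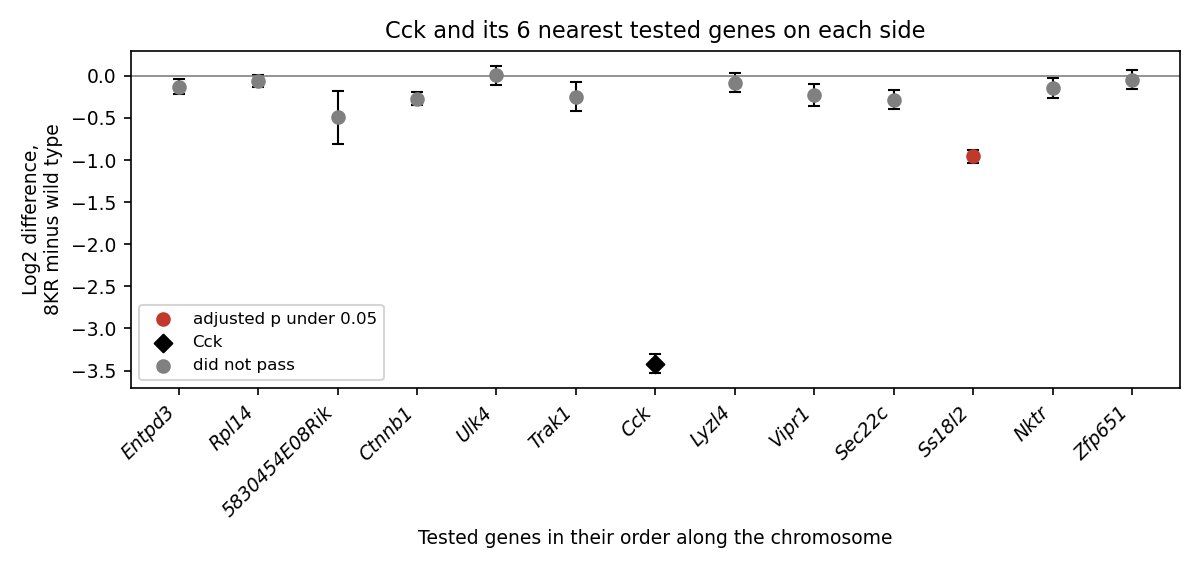
Log2 difference between 8KR and wild type cells (vertical axis) of Cck and the 6 nearest tested genes on each side in their chromosomal order (horizontal axis), with the standard error from limma as a bar. Cck (black diamond) lies at -3.42, Ss18l2 (red) at -0.96, and the other neighbours (grey) lie between -0.50 and 0.0045.

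The genes whose values most resembled those of Cck over the 6 arrays were named by Pearson's r. They were Gas5, a host gene of small nucleolar RNAs (r = 0.999), Eif3e, a translation initiation factor subunit gene (0.999), Galnt10, a glycosyltransferase gene (0.998), the smooth muscle actin gene Actg2 (0.998) and Tns2, a tensin gene of focal adhesions (0.998). The 6 points fall into the 2 groups, so r chiefly ranks genes by how small their spread within groups was beside their fall, and 71 of 17144 genes had r above 0.99. The sizes differed widely, with log2 differences of -0.31 for Gas5, -0.36 for Eif3e, -0.56 for Galnt10, -1.60 for Actg2 and -1.12 for Tns2, against -3.42 for Cck. Gas5 did not pass (adjusted p = 0.0632 from limma), and the other 4 did. With any 1 array left out, Eif3e and Galnt10 did not pass (adjusted p 0.108 to 0.127 and 0.0522 to 0.0654), and Actg2 and Tns2 did. These genes were picked by likeness to Cck, which itself splits by group. Their p-values from this same contrast are thus a description and not a test.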

How the data were processed

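RNA of 3 8KR and 3 wild type samples was hybridized to Mouse Gene 1.0 ST arrays. The deposited values are log2 intensities that the authors normalized and log2 scaled, 1 per probe set and array. Affymetrix Power Tools 1.12.0 appears in the processing notes of the submitters. The normalization method and genome build were not given in the sources used here. Of 35557 probe sets, 7014 with neither group mean above 3.0 were removed, as the methods state. The other 28543 were fitted in R 4.3.3 with lmFit and eBayes of limma 3.58.1 (8KR minus wild type, no covariates), with Benjamini-Hochberg adjustment over all of them and calls at an adjusted p under 0.05. The fit was tested on simulated data. Symbols came from the platform annotation (21789 probe sets with 1 symbol, 1621 with several, 12147 with none) and, outside the 9 members, were updated through Entrez identifiers with RefSeq GRCm38.p6. RefSeq served otherwise only for promoter sequences and gene order. Each gene was represented by its brightest probe set. Named besides the members were the called genes in each list lowest in adjusted p (up to 3), the 5 genes most correlated with Cck, Polr2a, genes picked by position, and genes named for their role after their values were seen. The members and lists were chosen with earlier results of these data known. Alternatives covered the filter, normalization, variance trend, array weights, a replicate block, the mean of a gene's probe sets and each array left out. The number of arrays limits the precision. Figures were drawn with matplotlib 3.10.9.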

Additional observations from a re-analysis of the deposited data

How the results depend on the processing

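Cck, which entered the list through this contrast, had log2 differences of -3.51 to -3.35 over the alternatives run, given as a description. None of the other 7 measured members passed under any alternative that tested it. The 5 with both group means below 5.0 were not tested where a group mean above 5.0 was required. Of all probe sets, 1245 passed (567 higher and 678 lower in 8KR cells). This number was 2295 when a group mean above 5.0 was required, 2200 with an intensity trend in the variance and 77 with the replicate block, and 368 to 406 with 1 array left out. Fewer arrays or residual degrees of freedom remain in the last 2 settings, and the cause of the others was not tested. Same-numbered samples did not deviate together over the tested probe sets (correlations of -0.011, 0.0086 and -4.8e-04). The labels name no pairing beyond the number. These correlations cannot exclude a shared origin that moves few genes. The block ended the calls of Pcsk7, Itpr3, Rgs2, Nln, Vip, Adm2, Creb3l1, Col3a1, Ss18l2, Ppip5k2, Relch, Palld, Eif3e, Galnt10 and Tns2, with adjusted p of 0.0530 to 0.149, and not those of Adm and Actg2. Testing without a filter ended those of Pcsk7, Col3a1, Palld and Eif3e (adjusted p = 0.0655, 0.0502, 0.0651 and 0.0611). Gas5 passed with the group mean above 5.0 and with the trend (adjusted p = 0.0197 and 0.0020). These fits of genes outside the members were added after seeing the data, and those of genes picked by likeness to Cck are a description only. With 1 array left out, the log2 difference changed sign for Cpe (-0.041 to 0.051), Pcsk1 (-0.21 to 0.071), Pcsk5 (-0.061 to 0.19) and Penk (-0.039 to 0.13), and for Cpe with quantile normalization (0.0017). None of these 4 passed in any setting that tested it. Pam stayed higher in 8KR cells in all settings (0.22 to 0.36) with adjusted p of 0.0785 to 0.336.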

Other observations

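Among the 6 nearest tested genes on each side of Pam, Ppip5k2 and Relch rose in 8KR cells (log2 differences 0.73 and 0.48, adjusted p = 0.0335 and 0.0272 from limma), and the median of the 12 was 0.14. These were 2 of the 12, beside the 5.39% of all tested genes that passed in either direction. With any 1 array left out neither passed, with adjusted p of 0.0559 to 0.109 for Ppip5k2 and 0.0734 to 0.0958 for Relch. Around Cpe, Palld rose (0.40, adjusted p = 0.0460 from limma) and did not pass with any 1 array left out (adjusted p 0.0958 to 0.138), and the median of the 12 neighbours was -0.03. Palld was the only 1 of these 12 that passed, beside the same 5.39%. Pam and Cpe do not stand out by these counts. Among 12 neighbours each, 2 passed around Cckar, 1 around Cckbr, 1 around Pcsk1, and 0 around Pcsk5 and around Penk. Edn1, the endothelin 1 precursor gene, singled out after its values were seen, averaged 6.19 in 8KR cells and 5.46 in wild type cells and did not pass (log2 difference 0.72, adjusted p = 0.0638 from limma).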
